A study of Mus musculus with 2 samples.

Results

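The killer lectin-like receptor genes and their Clec2 neighbours were followed in single-cell RNA counts of group 3 innate lymphoid cells (ILC3s) from the gut of aged mice. Members were all genes whose symbol begins with Klr or Clec2, which gave 32 of the 23679 genes in the count tables. Of these, 29 had a unique molecular identifier (UMI, the tag that marks 1 captured RNA molecule) in a kept cell, and they held 18998 UMIs. Klra10, Klra4 and Klrg2 had 0 UMIs. The cells had been sorted as ILC3s from the lamina propria of the small intestine of male C57BL/6 mice aged 18 months and captured on the BD Rhapsody system. There was 1 group of animals, with 2 replicates, each carrying its own sample tag in a library of its own (tag 6 in replicate 1, tag 12 in replicate 2). The labels give no genotype, and do not say whether a replicate is 1 animal or a pool. Where the level difference between the replicates is fitted as a block, p-values measure only how far group differences varied between these samples. That spread was estimated with help from all tested genes.

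Killer lectin-like receptors are C-type lectin-like proteins of the surface of natural killer (NK) cells, innate lymphoid cells and some T cells, and most are encoded side by side in the NK gene complex. They work in opposed sets: inhibitory receptors carry a motif that recruits phosphatases, whereas activating receptors signal through small adaptor proteins such as DAP10 (Hcst), DAP12 (Tyrobp) and the Fc receptor gamma chain (Fcer1g). Some of the Klrb1 (NKR-P1) receptors bind Clec2 (Clr) proteins encoded among them. The Klrc, Klrd and Klra receptors bind class I MHC molecules, and Klrk1 (NKG2D) binds stress-induced relatives of these.

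The filter on cells, a minimum of 300 detected genes and a mitochondrial share of no more than 25%, left 3337 cells in replicate 1 and 3840 in replicate 2, with a median of 1880 and 1674 UMIs per cell. They were put into 4 groups by UMIs of 6 genes. CD3-positive cells had at least 1 UMI of Cd3d, Cd3e or Cd3g (1149 and 1117 cells). Among cells with no CD3 UMI, those with an Ncr1 UMI (608 and 438 cells) and, of the others, those with a Ccr6 or Cd4 UMI (128 and 79 cells) were set apart, as gates for NKp46-bearing and lymphoid tissue inducer-like ILC3s. The remaining cells numbered 1452 and 2206. Sums over a group held between 153949 and 3671205 UMIs, and the Ccr6/Cd4-positive sums were the smallest. The groups are gates on detected UMIs and not pure types: a cell of a gated type whose gate gene was not captured falls into the remaining group, and the CD3-positive and Ncr1-positive cells were deeper in both replicates (medians of 1991 and 1769 UMIs in CD3-positive cells and 2045 and 1860 in Ncr1-positive cells, against 1725 and 1579 in the remaining cells).

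The ILC3 label fitted the marker genes in part. Il7r, the IL-7 receptor chain that ILC3s carry, was found in 84.8% to 94.3% of the cells of every group. Yet 34.4% and 29.1% of the kept cells had a CD3 UMI, and Trac, the T cell receptor alpha constant gene, stood at 812 and 774 CPM (UMIs scaled to a group sum of 1e+06) in them, against 56.6 and 112 in the remaining cells. In Ccr6/Cd4-positive cells Trac stood at 37.8 and 208 CPM, with a UMI in 16.5% of the cells of replicate 2, and Cd28, a T cell costimulatory receptor, at 21.02 and 65.0, against 16.8 and 21.8 in the remaining cells. Trbc1 and Trbc2, the beta constant genes, had a UMI in 41.8% to 58.2% of Ncr1-positive and remaining cells too. Of the markers of NK cells and ILC1s, Eomes, which defines conventional NK cells, had 1 UMI in the 2188 and 2723 cells without CD3, and Cma1 had 0, but cytotoxic genes were detected there. In Ncr1-positive cells Gzma had 53 and 19 UMIs, Gzmb 81 and 46, Prf1 48 and 16 and Itga2 25 and 2. In the remaining cells Gzma had 115 and 78, Gzmb 86 and 142, Prf1 61 and 48 and Itga2 34 and 21. Collagen-producing stromal cells differed between the replicates: the summed level of 5 stromal markers was 488 to 4107 CPM over the groups of replicate 1 and 26.0 to 107 in replicate 2. The 2 libraries shared 10 cell barcodes.

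Of the 32 genes, 29 lay within 2.64 Mb of chromosome 6 (GRCm38, bases 128609227 to 131247362, GENCODE M21), in the NK gene complex. Klrg1 lay outside it at base 122270596 of the same chromosome, and Klrg2 and Clec2l began at 38625693 and 38663069. RefSeq (GRCm38.p6) held a promoter for 29 of the 32. The 4 shown are those of Klrb1b, the member with most UMIs, of Klrb1c and Klrk1, which were also lower in CD3-positive cells, and of Clec2d, which was higher there. Each is the 250 bases before an annotated start. Capitals mark AGGTCA, a core site of nuclear receptors, and TGTGGT, the core RUNX site, on either strand, as letter matches only. Sites of T-box, AP-1 and TCF/LEF transcription factors were searched too and had no match in the 4 windows. Of windows not shown, those of Klrb1f and Clec2i held neither AGGTCA nor TGTGGT, and that of Klrc1 held 1 TGTGGT. Across 32851 promoter windows of the same length, 14.0% held AGGTCA and 14.0% held TGTGGT.
Klrb1b is on the minus strand, chr6:128826316-128826565, Klrb1c on the minus strand, chr6:128788642-128788891, Klrk1 on the minus strand, chr6:129623865-129624114, and Clec2d on the plus strand, chr6:129180365-129180614.
Klrb1b: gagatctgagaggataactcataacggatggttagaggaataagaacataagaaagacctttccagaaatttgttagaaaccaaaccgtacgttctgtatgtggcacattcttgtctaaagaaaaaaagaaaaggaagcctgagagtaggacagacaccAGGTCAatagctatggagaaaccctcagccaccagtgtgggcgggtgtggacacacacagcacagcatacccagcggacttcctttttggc
Klrb1c: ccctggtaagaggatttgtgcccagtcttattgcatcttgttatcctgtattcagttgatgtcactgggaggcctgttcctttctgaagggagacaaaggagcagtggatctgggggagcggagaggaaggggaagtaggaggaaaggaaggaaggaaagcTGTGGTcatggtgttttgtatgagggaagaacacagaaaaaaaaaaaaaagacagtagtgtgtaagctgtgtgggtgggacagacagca
Klrk1: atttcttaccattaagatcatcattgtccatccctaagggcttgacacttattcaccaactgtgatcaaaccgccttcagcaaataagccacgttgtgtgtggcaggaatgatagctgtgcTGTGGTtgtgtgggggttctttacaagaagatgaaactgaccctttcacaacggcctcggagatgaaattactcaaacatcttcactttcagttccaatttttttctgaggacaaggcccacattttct
Clec2d: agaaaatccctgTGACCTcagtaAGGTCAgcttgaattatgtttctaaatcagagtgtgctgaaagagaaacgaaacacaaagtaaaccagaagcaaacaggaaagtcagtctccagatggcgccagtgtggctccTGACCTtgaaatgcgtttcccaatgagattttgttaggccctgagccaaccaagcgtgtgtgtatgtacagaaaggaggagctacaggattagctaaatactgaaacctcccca
The Klrb1b window held 1 AGGTCA at base -91 from the start and no TGTGGT. The windows of Klrb1c and Klrk1 each held 1 TGTGGT, at -89 and -129, and no AGGTCA, and that of Clec2d held 3 AGGTCA and no TGTGGT.

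Klrb1b, the gene of the inhibitory receptor NKR-P1B, held 11134 UMIs, or 58.6% of the family. It was followed by Klrk1 with 2524, Clec2d with 1254, Klrb1f with 1092, Clec2i with 951, Klrb1c with 865, Klri2 with 345 and Klrc1 with 248. These 8 genes held 18413 UMIs in all. A further 9 genes held between 20 and 160 UMIs, and 12 held between 1 and 14. Almost every Ncr1-positive cell had a UMI of some member: 96.4% and 94.5% did (exact 95% intervals 94.6% to 97.7% and 92.0% to 96.5%), against 89.0% and 83.0% of the remaining cells. The share was 84.4% and 81.0% of Ccr6/Cd4-positive cells and 58.8% and 47.7% of CD3-positive cells, against the same 89.0% and 83.0%. After each cell was thinned to 1000 UMIs, which leaves out 186 and 313 shallower cells, the shares were 40.9% and 34.1% in CD3-positive, 86.3% and 81.6% in Ncr1-positive, 73.9% and 70.3% in Ccr6/Cd4-positive and 79.2% and 73.9% in the remaining cells. The order of the groups was the same at equal depth. Intervals cover counting error only. UMIs of 3 or more members were seen in 40.8% and 26.5% of Ncr1-positive cells, in 8.79% and 4.21% of CD3-positive cells and in 7.81% and 18.99% of Ccr6/Cd4-positive cells, against 21.8% and 16.4% of the remaining cells.

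**Figure D1:**
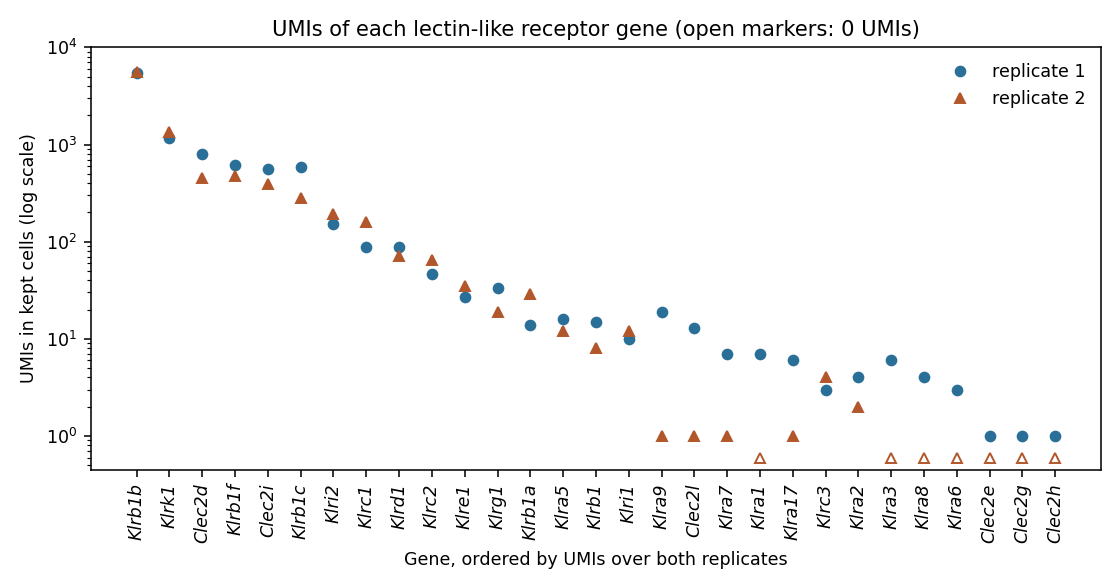
UMIs of the 29 detected genes in kept cells (y axis, log scale), ordered by their sum over both replicates, with circles for replicate 1 and triangles for replicate 2. Klrb1b stands apart with 5506 and 5628 UMIs, and 7 genes at the right have an open marker for 0 UMIs in replicate 2.

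Levels below are in CPM, for replicate 1 and then replicate 2. UMIs of different genes were not corrected for how well each transcript is captured. Klrb1b stood at 242 and 291 CPM in CD3-positive cells, against 1101 and 1044 in the remaining cells. It stood at 1190 and 1173 in Ncr1-positive cells and at 1106 and 1033 in Ccr6/Cd4-positive cells. The CD3-positive sums lay far below all 6 others, which spanned only 1033 to 1190. A Klrb1b UMI was found in 25.1% and 29.5% of CD3-positive cells, 90.1% and 85.6% of Ncr1-positive cells and 76.6% and 74.7% of Ccr6/Cd4-positive cells, against 80.2% and 72.5% of the remaining cells. At 1000 UMIs per cell these shares were 16.7% and 20.02%, 71.6% and 67.3%, and 65.5% and 60.8%, against 65.7% and 59.8%. Cells with 4 or more Klrb1b UMIs made up 4.35% and 3.04% of CD3-positive cells and 27.0% and 23.3% of Ncr1-positive cells, against 19.1% and 14.3% of the remaining cells.

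**Figure D2:**
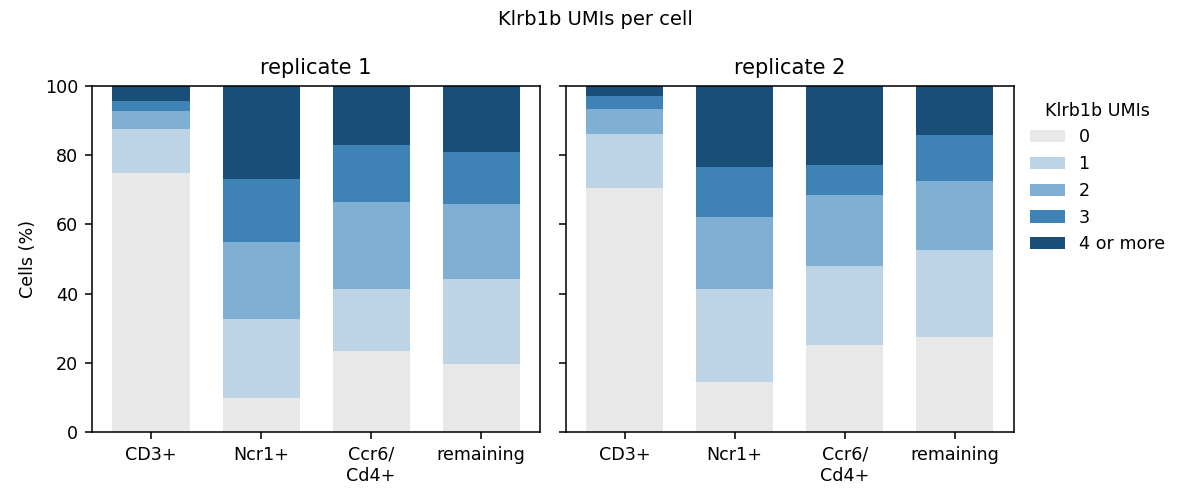
Share of cells (y axis, percent) with 0, 1, 2, 3 and 4 or more Klrb1b UMIs in each cell group, for replicate 1 (left) and replicate 2 (right). Cells with 0 UMIs make up 74.9% and 70.5% of the CD3-positive group, against 19.8% and 27.5% of the remaining cells.

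A share of cells with a UMI was also taken in collagen-rich cells, by a cut chosen after values were seen. They had at least 20 UMIs of Col1a1, Col3a1 and Dcn and none of Ptprc, the pan-leukocyte gene CD45. They were not kept apart from the 4 cell groups. The wider stromal gate, at least 3 such UMIs and none of Ptprc, held 100 cells in replicate 1. Of those 100, 18 were CD3-positive and 15 Ncr1-positive. Whether the collagen-rich cells express any of the members was not tested. Of 47 such cells in replicate 1, 34.0% had a Klrb1b UMI at a median of 4520 UMIs per cell, and 19.1% after thinning (exact 95% interval 9.15% to 33.3%). The thinned shares of CD3-positive cells, 16.7% and 20.02%, are within that replicate 1 interval. A difference was thus not detectable at this number of cells. Whether the Klrb1b UMIs of CD3-positive cells are expression was not tested, and 4.35% and 3.04% of these cells had 4 or more. These collagen-rich cells also held Il7r in 36.2% and Il22 in 31.9%, and whether free RNA or doublets gave these UMIs was not tested. For Klrk1 the thinned share was 5.75% and 3.95% in CD3-positive cells, against 4.26% in the collagen-rich cells, or 2 of 47 (exact 95% interval 0.52% to 14.5%), so a difference was not detectable at this number of cells. Among CD3-positive cells with a Klrd1 UMI, 12 of 18 in replicate 1 and 2 of 12 in replicate 2 also had a Klrk1 UMI, where 2.13 and 0.956 would be expected if they were independent. Replicate 2 had 5 collagen-rich cells, too few for such a share.

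Differences between CD3-positive cells and the remaining cells, which leave out the Ncr1-positive and Ccr6/Cd4-positive cells, were tested on UMI counts summed per replicate and group, with edgeR's quasi-likelihood test, the replicate as a block and Benjamini-Hochberg adjustment over 9637 genes. The gate genes were left out of the count, and 13 of the 32 members had enough UMIs to be tested. Of these 13, 6 were lower and 1 was higher in CD3-positive than in remaining cells at an adjusted p under 0.05, while 13.8% of all tested genes passed (6.49% higher and 7.29% lower). The median log2 ratio of the 13 was -1.07, and that of all tested genes -0.01. The 6 that fell are receptors of both signs: Klrb1b, Klrb1c, Klrb1f, Klrk1, Klrc1 and Klri2. The 1 that rose was Clec2d, the gene of the Clr-b ligand. Markers of B cells summed to 242 and 13.2 CPM in CD3-positive cells, against 744 and 518 in the remaining cells, and stromal markers to 3347 and 107, against 4107 and 85.3. The part of the B cell RNA in the result was not tested, and 7 members passed with stromal-gate cells left out. DESeq2 called 5 of the 13, all lower, and not Clec2d or Klrc1 (adjusted p of 0.053 and 0.21). The edgeR fit without the block called 2, Klrb1b and Klri2. With cells that had any T cell receptor constant UMI counted as T cells, the group took in 2674 of 3337 and 3015 of 3840 cells, and 0 of 8 tested members passed edgeR's test (2 at an unadjusted p under 0.05). With that gate the log2 ratio was -0.38 for Klrb1b (edgeR adjusted p = 0.052), -0.19 for Klrk1, -0.0077 for Klrb1f, -0.21 for Klri2 and 0.36 for Clec2d.

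In that comparison Klrb1b fell by 1.98 on the log2 scale (SE 0.11, edgeR adjusted p = 4.1e-12), a 3.95-fold lower level in CD3-positive than in remaining cells. Taken singly, the replicates gave log2 ratios of -2.14 and -1.83. Such ratios of single replicates were computed with a prior count of 2 added, which draws those of low genes towards 0. In Ncr1-positive over remaining cells the Klrb1b ratio was 0.13 (SE 0.10, edgeR adjusted p = 0.88). In Ccr6/Cd4-positive over remaining cells it was -0.10 (SE 0.12, edgeR adjusted p = 0.79). Neither passed the threshold of 0.05. For Ncr1-positive over Ccr6/Cd4-positive cells the ratio was 0.23 (SE 0.12, edgeR adjusted p = 0.36). In GENCODE M21, Klrb1b and Klrb1c overlap the gene Gm44511 on the same strand. Of all 50-base words in the last 500 bases of Klrb1b transcripts, 22.4% occur in other genes and 5.08% in other members. Reads of such stretches could have been lost or assigned to a paralog.

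Clec2d encodes Clr-b, the ligand that Klrb1b binds. It had 144 and 79.9 CPM in CD3-positive cells, against 99.3 and 59.4 in the remaining cells, and 102 and 57.4 in Ncr1-positive and 79.9 and 77.9 in Ccr6/Cd4-positive cells. CD3-positive cells were the highest group in each replicate, although their sum in replicate 2 lay below the remaining cells of replicate 1. The log2 ratio of CD3-positive over remaining cells was 0.52 (SE 0.13, edgeR adjusted p = 0.0078), with 0.58 and 0.43 in the replicates. Without the replicate block the adjusted p of edgeR's test was 0.96. The level of Clec2d in replicate 1 was above that in replicate 2 in all 4 groups. Thinned shares of cells with a UMI were 13.6% and 7.05% in CD3-positive cells, against 8.97% and 5.58% in the remaining cells, and 4.26% in the 47 collagen-rich cells (exact 95% interval 0.52% to 14.5%). That interval holds the shares of both groups in both replicates. Neither group could thus be told from the collagen-rich cells at this number of cells. Before thinning 29.8% of the collagen-rich cells had a Clec2d UMI, so they are not read as a background for Clec2d. Where Clec2d and Klrb1b could meet in 1 cell, they met about as often as independent draws would give: among cells without CD3, 295 and 193 had both, where 282 and 181 would be expected from the shares of each.

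**Figure D3:**
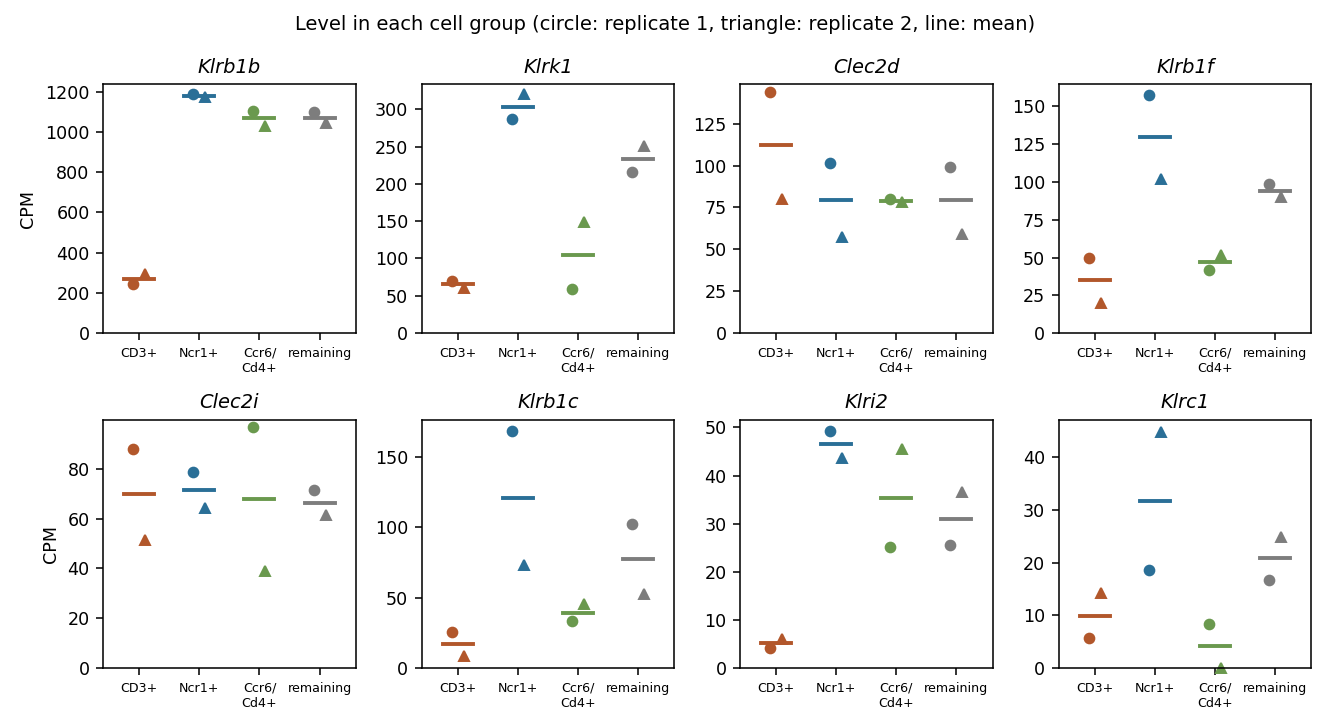
Level (y axis, CPM of the group's sum, from 0) of the 8 members with at least 200 UMIs in the 4 cell groups, with circles for replicate 1, triangles for replicate 2 and a line at their mean. Klrb1b is low only in the CD3-positive group, with 242 and 291, whereas Klrk1 is low in both the CD3-positive and the Ccr6/Cd4-positive groups.

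Klrb1c encodes the activating receptor NKR-P1C, known as NK1.1, and Klrb1f another member of this receptor family, NKR-P1F. Klrb1c stood at 25.9 and 8.99 CPM in CD3-positive cells, against 103 and 52.6 in the remaining cells. It had 168 and 73.5 in Ncr1-positive and 33.6 and 45.5 in Ccr6/Cd4-positive cells. Within each replicate the Ncr1-positive sum was the highest and the CD3-positive sum the lowest, and replicate 1 was above replicate 2 in all groups but the Ccr6/Cd4-positive. Klrb1c fell by 2.13 (log2, SE 0.20, edgeR adjusted p = 2.3e-08) in CD3-positive over remaining cells, with -1.89 and -2.40 in the replicates. Without the block edgeR's adjusted p was 0.21. Of the 50-base words at its 3′ end, 17.8% occur in other genes.

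Klrb1f had 49.9 and 19.9 CPM in CD3-positive cells, against 98.5 and 90.2 in the remaining cells. It had 158 and 102 in Ncr1-positive and 42.0 and 52.0 in Ccr6/Cd4-positive cells. The CD3-positive and Ccr6/Cd4-positive sums were below every Ncr1-positive and remaining sum. It fell by 1.43 (log2, SE 0.19, edgeR adjusted p = 8.6e-06) in CD3-positive over remaining cells. The replicates differed in size, with -0.92 in replicate 1 and -2.11 in replicate 2, which is the value without replicate 1. Without the block edgeR's adjusted p was 0.23. None of its 3′ words occur in another gene.

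Clec2i encodes Clr-g, a ligand of NKR-P1F. It had 88.1 and 51.6 CPM in CD3-positive, 78.5 and 64.3 in Ncr1-positive and 96.7 and 39.0 in Ccr6/Cd4-positive cells, against 71.5 and 61.3 in the remaining cells. The groups overlapped throughout. Its log2 ratio was 0.08 (SE 0.16, edgeR adjusted p = 0.83) in CD3-positive over remaining cells, with 0.34 in replicate 1 and -0.24 in replicate 2, and its 95% interval reached from -0.25 to 0.40. The Clec2 genes together held 233 and 131 CPM in CD3-positive, 185 and 122 in Ncr1-positive and 181 and 117 in Ccr6/Cd4-positive cells, against 173 and 121 in the remaining cells. The 5 Klrb1 genes held 318 and 323 in CD3-positive, 1522 and 1362 in Ncr1-positive and 1194 and 1143 in Ccr6/Cd4-positive cells, against 1308 and 1191. Klrb1a, an activating NKR-P1 receptor, had 43 UMIs in all and Klrb1 had 23.

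Klrk1 encodes NKG2D, an activating receptor that signals through DAP10. It had 70.1 and 60.5 CPM in CD3-positive cells, against 216 and 251 in the remaining cells. It had 287 and 320 in Ncr1-positive cells and 58.9 and 149 in Ccr6/Cd4-positive cells. The Ncr1-positive sum was the highest in each replicate. In Ncr1-positive over remaining cells the log2 ratio was 0.37 (SE 0.13, edgeR adjusted p = 0.31) and did not pass. The Ccr6/Cd4-positive values rest on 14 and 23 UMIs. Klrk1 fell by 1.79 (log2, SE 0.14, edgeR adjusted p = 2.0e-09) in CD3-positive over remaining cells, with -1.56 and -2.02 in the replicates, and edgeR's adjusted p was 0.078 without the block. A Klrk1 UMI was found in 40.8% and 41.3% of Ncr1-positive cells, against 26.2% and 28.5% of the remaining cells, and, at 1000 UMIs per cell, in 25.2% and 27.0%, against 17.3% and 19.5%.

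Klrk1 was also the member that fell in Ccr6/Cd4-positive over remaining cells. It fell by 1.38 (log2, SE 0.25, edgeR adjusted p = 0.0012), with -1.89 and -0.91 in the replicates. It was the only called gene of the 13 tested members, while 4.17% of all genes passed in that comparison (1.60% higher and 2.57% lower). Klrb1c and Klrb1f had log2 ratios of -1.20 (SE 0.37) and -1.20 (SE 0.40), with edgeR adjusted p = 0.074 and 0.10, and did not pass. The stromal marker sum was 488 and 26.0 CPM in Ccr6/Cd4-positive cells, against 4107 and 85.3 in the remaining cells, and 0 of the 5 stromal markers in replicate 1 and 3 in replicate 2 were at 0 in the Ccr6/Cd4-positive sums. With cells that pass the stromal gate left out, 1 member was called as well. Trac and Cd28 were higher in the Ccr6/Cd4-positive sum of replicate 2 than in its remaining cells, as given above, and with cells that had a T cell receptor constant UMI left out of both groups the log2 ratio of Klrk1 was -2.97 (edgeR adjusted p = 9.0e-04). B cell markers summed to 198 and 26.0 CPM in Ccr6/Cd4-positive cells, against 744 and 518 in the remaining cells, and their part was not tested. Without the replicate block 0 members passed edgeR's test (2 at an unadjusted p under 0.05), while DESeq2 with the block called 1, and Klrk1 had an edgeR adjusted p of 0.47 without it.

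Ncr1-positive and Ccr6/Cd4-positive cells stand for the main subsets of ILC3s, and 3 of the 13 tested members were higher in the first and 0 lower, where 4.56% of all genes passed (2.37% higher and 2.19% lower). Klrk1 rose by 1.75 on the log2 scale (SE 0.25, edgeR adjusted p = 5.0e-05), with 2.32 and 1.22 in the replicates. Klrb1c rose by 1.82 (SE 0.36, edgeR adjusted p = 0.0020), with 2.34 in replicate 1 and 0.80 in replicate 2, the value without replicate 1. Klrb1f rose by 1.63 (SE 0.39, edgeR adjusted p = 0.012), with 1.93 and 1.09. The median log2 ratio was 0.92 over the 13 members and 0.10 over all genes. DESeq2 with the block called 3 members too. Without the block 0 passed edgeR's test (4 at an unadjusted p under 0.05), with adjusted p of 0.19, 0.43 and 0.33 for these genes. Both marker lists of other cells moved with the groups: stromal markers summed to 3158 and 33.3 CPM in Ncr1-positive cells, against 488 and 26.0 in Ccr6/Cd4-positive cells, and B cell markers to 826 and 776, against 198 and 26.0. Their part in the result was not tested, other than that 3 members passed with stromal-gate cells left out too.

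In Ncr1-positive over remaining cells no member passed edgeR's test, in which 1.09% of all genes did (0.083% higher and 1.01% lower). At an unadjusted p under 0.05 there were 6 members, all higher, and DESeq2's test called 0. Klrd1 and Klrb1c came closest, with log2 ratios of 1.21 (SE 0.33, edgeR adjusted p = 0.075) and 0.62 (SE 0.16, edgeR adjusted p = 0.060). The median log2 ratio of the 13 members was 0.55, against -0.01 over all genes. Without the filter on low counts 2 members passed. The comparisons with the remaining cells share those cells, so their values are not independent of each other.

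**Figure D4:**
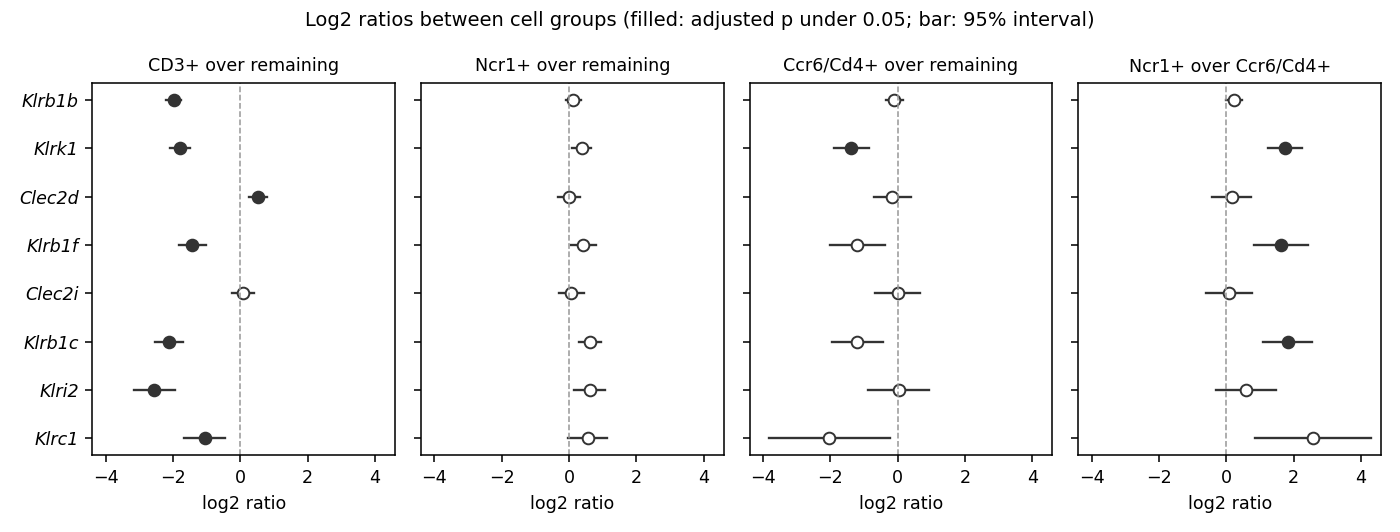
Log2 ratio (x axis) of the 8 members with at least 200 UMIs in the 4 comparisons, with bars for the 95% interval and filled circles at an adjusted p under 0.05 in edgeR's test with the replicate as a block. In CD3-positive over remaining cells 6 lie left of 0 with filled circles and Clec2d right of it at 0.52, and in Ncr1-positive over Ccr6/Cd4-positive cells Klrk1, Klrb1c and Klrb1f are filled, between 1.63 and 1.82.

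Klrc1 and Klrc2 encode NKG2A, inhibitory, and NKG2C, activating, which both pair with CD94, the product of Klrd1, and bind Qa-1 (H2-T23). Klrc1 had 5.72 and 14.2 CPM in CD3-positive, 18.7 and 44.8 in Ncr1-positive and 8.41 and 0 in Ccr6/Cd4-positive cells, against 16.8 and 24.8 in the remaining cells. The Ncr1-positive sum was the highest in each replicate. It fell by 1.07 (log2, SE 0.30, edgeR adjusted p = 0.017) in CD3-positive over remaining cells, with -1.34 and -0.75, and edgeR's adjusted p was 0.95 without the block. Klrd1 had 10.7 and 7.57 CPM in CD3-positive cells and 21.7 and 24.1 in Ncr1-positive cells, against 10.2 and 8.99 in the remaining cells. Of the 50-base words at the 3′ end of Klrc1, 43.5% occur in Klrc2 or Klrc3, so the split of reads between these genes is uncertain, whereas Klrd1 shares none.

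Transcripts of the CD94 partners, Klrc1 and Klrc2, were found with Klrd1 more often than their shares would give. Among the 2188 and 2723 cells without CD3, Klrc1 and Klrd1 were seen together in 8 and 8 cells, where 0.963 and 1.58 would be expected if they were independent. Klrc2 and Klrd1 were seen together in 5 and 6, where 0.535 and 0.727 would be expected. Klrk1, which is not one of these partners, met Klrd1 in 21 and 22 cells, where 11.4 and 13.3 would be expected. These counts are a description over cells that differ in type and depth, and the counts are small.

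Klri2 encodes a receptor that pairs with the product of Klre1. It had 4.19 and 6.15 CPM in CD3-positive, 49.3 and 43.6 in Ncr1-positive and 25.2 and 45.5 in Ccr6/Cd4-positive cells, against 25.5 and 36.5 in the remaining cells. The CD3-positive sums lay below all others, with 11 and 13 UMIs. Klri2 fell by 2.56 (log2, SE 0.29, edgeR adjusted p = 7.2e-07) in CD3-positive over remaining cells, with -2.27 and -2.37 in the replicates after the prior count, and it passed without the block as well, with an edgeR adjusted p of 0.036. Its partner Klre1 had 62 UMIs in all, of which 14 and 12 came from CD3-positive cells. Klre1 and Klrd1, its neighbour in the complex, were seen together in 4 and 6 cells without CD3, where 0.160 and 0.275 would be expected. Klre1 and Klri2 met in 2 and 4, where 0.317 and 0.643 would be expected.

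The other members were near the limit of detection. Klrg1, an inhibitory receptor for cadherins, had 52 UMIs, with 6.93 and 2.45 CPM in the remaining cells. Klri1, which also pairs with the Klre1 product, had 22 UMIs, of which 5 and 5 were in Ncr1-positive cells. The 11 Klra genes, which encode the Ly49 receptors for class I MHC molecules, had 56 and 6 UMIs in CD3-positive, 2 and 0 in Ncr1-positive and 0 and 0 in Ccr6/Cd4-positive cells, against 14 and 11 in the remaining cells. Most Klra UMIs of replicate 1 thus came from CD3-positive cells, 18 cells in number, and Klra9 alone gave 19 of them there, against 0 in the remaining cells of that replicate. Of the 3′ words of Klra9, 49.4% occur in other genes, so its UMIs could belong to another Ly49 gene. Clec2l, with 14 UMIs, had the most of the 12 lowest genes.

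Cells without CD3 that carried a Ccl5 or Gzma UMI, genes of cytotoxic lymphocytes, were compared with those that carried neither, as a description chosen after values were seen (1989 of the 2188 and 2568 of the 2723 cells without CD3 carried neither). Klrd1 had 56.1 and 95.7 CPM in the cells with such a UMI, against 9.30 and 5.92 in the cells without. Klrc1 had 53.9 and 95.7, against 12.7 and 22.99, and Klri2 had 80.8 and 99.0, against 27.4 and 33.9. These receptors of the Klrc, Klrd and Klri families were higher in cells with a Ccl5 or Gzma UMI in both replicates. Klrb1b did not follow them, with 1102 and 1089 CPM, against 1132 and 1066, nor did Clec2d, with 78.6 and 49.5, against 101 and 60.3. Klrb1c was also higher, with 150 and 119, against 115 and 51.9. Klre1 was higher too, with 11.2 and 39.6, against 2.07 and 2.50. Klrb1f was lower, with 92.0 and 69.3, against 116 and 92.7. In cells with such a UMI, Klrd1 rests on 25 and 29 UMIs, Klrc1 on 24 and 29 and Klri2 on 36 and 30. Those cells were deeper, with medians of 1963 and 1729 UMIs, against 1790 and 1618.

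Genes of adaptors and signalling proteins also differed between groups, in a list that includes genes of T cell receptor signalling. Of 19 tested genes of a list of 20 adaptors and signalling proteins, 9 were higher and 3 lower in CD3-positive over remaining cells, where 6.49% of all genes were higher and 7.29% lower. DESeq2 called 6 higher and 2 lower. Fcer1g, the chain used by NK1.1, stood at 237 and 175 CPM in CD3-positive cells, against 1491 and 1094 in the remaining cells, and fell by 2.63 (log2, SE 0.11, edgeR adjusted p = 7.6e-14). Lat and Cd247, which serve the T cell receptor, rose by 2.24 (SE 0.13, edgeR adjusted p = 5.2e-12) and 3.39 (SE 0.21, edgeR adjusted p = 2.2e-11). The other adaptors differed in direction. Hcst had 330 and 296 CPM in CD3-positive cells, against 190 and 194 in the remaining cells, although Klrk1 was lower there. Tyrobp had 25.5 and 3.31, against 43.1 and 35.7. In Ncr1-positive over Ccr6/Cd4-positive cells edgeR called 4 higher and 0 lower (3 lower at an unadjusted p under 0.05), where 4.56% of all genes passed, and DESeq2 called 2 higher and 1 lower. Among the 4 was Hcst, the DAP10 partner of NKG2D, with 275 and 192 CPM in Ncr1-positive cells, against 135 and 136 in Ccr6/Cd4-positive cells (log2 ratio 0.90, SE 0.22, edgeR adjusted p = 0.015). The other 3 were Fcer1g, with a log2 ratio of 0.49 (SE 0.11, edgeR adjusted p = 0.0086), Fyn with 0.80 and Lck with 0.89. In Ccr6/Cd4-positive over remaining cells, where 4.17% of all genes passed, 1 was higher, Plcg2 (log2 ratio 0.61), and 1 lower, Fyn (log2 ratio -0.70), and in Ncr1-positive over remaining cells 0 passed edgeR's test (4 at an unadjusted p under 0.05, and 0 with DESeq2). Without the replicate block edgeR called 4 adaptors in CD3-positive over remaining cells and 0 in the other comparisons, where between 0 and 7 had an unadjusted p under 0.05.

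Of a list of 12 ligand genes 6 were tested, and 0 passed edgeR's test in any of the 4 comparisons. At most 1 had an unadjusted p under 0.05, and DESeq2 called 1 in each comparison with a Ccr6/Cd4-positive group and 0 in the others. H2-T23, the ligand of the CD94 receptors, had 217 and 166 CPM in CD3-positive, 225 and 177 in Ncr1-positive and 202 and 156 in Ccr6/Cd4-positive cells, against 222 and 168 in the remaining cells. Of the NKG2D ligands, Raet1e and H60c had 0 UMIs in every group and Ulbp1 between 1 and 34. Among 19 tested of 22 other genes of NK cells and ILC1s, 6 were higher and 6 lower in CD3-positive over remaining cells, where 13.8% of all genes passed. Gzmb, Gzma and Ccl5 rose by 2.69, 2.60 and 2.39, and Xcl1, a chemokine, fell by 1.74 on the log2 scale. In Ncr1-positive over Ccr6/Cd4-positive cells 10 were higher and 0 lower, where 4.56% of all genes passed, among them Xcl1 with a log2 ratio of 2.14 (SE 0.21, edgeR adjusted p = 4.8e-07), Nkg7 with 1.90, Serpinb9 with 1.87 and Cd226 with 1.81. In Ncr1-positive over remaining cells, where 1.09% of all genes passed, 3 were higher, Xcl1 with 0.64, Nkg7 with 0.61 and Cd244a with 0.87. In Ccr6/Cd4-positive over remaining cells, where 4.17% passed, 6 were lower, with Serpinb9 at -1.48 and Xcl1 at -1.50. Without the replicate block edgeR called 3 of this list in CD3-positive over remaining cells and 0 in the other comparisons, where 2, 11 and 10 had an unadjusted p under 0.05. DESeq2 with the block called 10, 0, 4 and 7 in the order of the comparisons CD3-positive, Ncr1-positive and Ccr6/Cd4-positive over remaining cells and Ncr1-positive over Ccr6/Cd4-positive cells.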

How the data were processed

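The deposited counts are UMI counts per cell and gene, not normalised, after the pipeline's error correction (RSEC, as the tables are named). Per the file headers, the authors ran version 1.8 of the BD WTA Multiplex Rhapsody Analysis Pipeline with GENCODE M19. The submitters' processing notes also name HISAT2 2.0.5, Bowtie2, mm10 and GRCm38.p6. The deposited sample tag calls picked the cells of tag 6 and tag 12 (3427 and 3954). Cells of other tags, multiplets (572 and 987) and undetermined cells were left out, and no further doublet caller was run. Genes listed in only 1 of the tables got 0 in the other.

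After the cell filter, UMIs were summed per replicate and cell group into 8 sums, 6939790 and 6810214 UMIs in all. edgeR 4.0.16 fitted cell group plus replicate (R 4.3.3; TMM; filterByExpr; glmQLFit and glmQLFTest; Benjamini-Hochberg over 9637 genes). The sums of a replicate share 1 library, hence the block. The fit was tested on simulated counts. Shares have exact (Clopper-Pearson) 95% intervals. Levels are CPM computed from the sums. Alternatives included DESeq2 1.42.0, other filters and gates, thinned cells and each replicate alone.

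Members with at least 200 UMIs were described with values in every group, those with 20 or more briefly, and up to 4 called genes of each list by smallest adjusted p. The members and lists were chosen with earlier results of these data known. RefSeq and GENCODE tables were matched by symbol. Protein sequences were not used here. Of the marker genes examined, 1 is not reported here.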

Additional observations from a re-analysis of the deposited data

How the results depend on the processing

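Of 352 recomputed log2 ratios of the 8 members with most UMIs, 308 counted as the same and 19 changed sign. For refits, the same means that direction and side of the threshold were kept. Among the 308 are 26 ratios without replicate 1 and 28 without replicate 2, which had no test. Those counted as the same if they kept direction and lay within 1 SD of the replicate ratios from the main value. With only 2 ratios that SD grows with their distance, so nearly any pair of the same sign passes. These ratios are thus no measure of how stable the main values are. Without the replicate block the genes called were 71, 0, 1 and 10 in CD3-positive, Ncr1-positive and Ccr6/Cd4-positive over remaining cells and in Ncr1-positive over Ccr6/Cd4-positive cells (1328, 105, 402 and 439 with it), and the members called 2, 0, 0 and 0 (7, 0, 1 and 3 with it). DESeq2 called 718, 9 and 243 genes in the comparisons with the remaining cells. No filter on low counts gave 226 genes and 2 members in Ncr1-positive and 3 members in Ccr6/Cd4-positive over remaining cells. Thinned cells gave 58 genes in Ncr1-positive, and 222 genes and 2 members in Ccr6/Cd4-positive over remaining cells. Leaving out stromal-gate cells gave 23 genes in Ncr1-positive over remaining cells. With T cell receptor constant genes in the T cell gate, 376 genes and 0 members were called in CD3-positive over remaining, 205 genes in Ccr6/Cd4-positive over remaining and 218 in Ncr1-positive over Ccr6/Cd4-positive cells. That gate turned Klrb1c to 0.17 and Klrc1 to 0.60 in CD3-positive over remaining cells, Klrb1b to 0.069, Clec2d to 0.28 and Clec2i to 0.45 in Ccr6/Cd4-positive over remaining cells, and Clec2d to -0.082 in Ncr1-positive over Ccr6/Cd4-positive cells. The other changes of sign were of uncalled ratios. For Clec2i in Ccr6/Cd4-positive over remaining cells they were 0.050 with DESeq2 size factors, 0.014 with DESeq2 and 0.052 with the stricter cell filter. For Clec2d in Ncr1-positive over remaining cells they were -0.026 without the filter on low counts and -0.0049 with the stricter cell filter. Klri2 in Ccr6/Cd4-positive over remaining cells was -0.052 without the filter on low counts.

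With 1 replicate left out the log2 ratio ran from -0.24 to 0.34 for Clec2i in CD3-positive over remaining cells, from -0.088 to 0.057 for Clec2d in Ncr1-positive over remaining cells, and in Ccr6/Cd4-positive over remaining cells from -0.34 to 0.22 for Clec2d, from -0.80 to 0.39 for Clec2i and from -0.051 to 0.14 for Klri2. In Ncr1-positive over Ccr6/Cd4-positive cells it ran from -0.31 to 0.40 for Clec2d and from -0.24 to 0.83 for Clec2i. Where no cause is given, the cause was not tested. Median ratios over all genes moved by under 0.1 with another scaling. The Ccr6/Cd4-positive sums, with 237874 and 153949 UMIs, limit every value that rests on them.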
